A study of Mus musculus with 4 samples.

Results

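Monocytes and macrophages made up 409 of 24893 cells that were sorted from the spleen of 2 chimeric mice on day 8 after infection with LCMV Armstrong, a strain of lymphocytic choriomeningitis virus that mice clear. They were chosen from single-cell RNA counts by a rule on transcripts. A member had at least 500 genes, at most 10% mitochondrial UMIs, and at least 6 UMIs summed over Lyz2, Csf1r, Tgfbi, C1qa, C1qb and C1qc. It had fewer than 20 UMIs summed over the neutrophil genes S100a8, S100a9, Ngp and Camp, and at most 1 UMI of the B cell genes Cd79a and Ms4a1. A UMI is a molecular tag that marks 1 captured transcript, so that its PCR copies are counted once.

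Each chimera was a sub-lethally irradiated Rag1-/- mouse that had received WT (CD45.1) and Bcl3-/- (CD45.2) bone marrow, and gave 1 library of each genotype from cells sorted as H-2Db-GP33+ CD8+ from the spleen, on the C57bl/6 background. The library pair of chimera 1 is called WT1 and KO1 here, and that of chimera 2 is called WT2 and KO2, so that n = 2 per genotype, with KO standing for Bcl3-/-. No treatment other than the irradiation, marrow transfer and infection was named, and no age was stated for them. Every group shared the Rag1-/- host, the infection, the day and the gate for GP33+ CD8+ cells, while the genotypes were separated by their CD45 allele. WT and Bcl3-/- marrow thus also differed in the CD45 allele and in the donor line that carried it. The part of these in any difference below was not tested and cannot be told apart from that of Bcl3. Bcl3 encodes Bcl-3, a nuclear member of the IkappaB family that binds NF-kappaB p50 and p52 and modulates their target genes. Within a chimera, both genotypes matured and met the virus in the same animal. A Rag1-/- host makes no mature B or T cells of its own but keeps its own myeloid cells, and host and donor macrophages cannot be told apart by these counts. Host cells with Bcl3 that carry the allele of 1 gate would enter the libraries of that genotype alone, so that Bcl3-/- members may hold host cells that WT members do not, or the reverse, and every difference between the genotypes below carries this limit. The sort was for antigen-specific CD8+ T cells, so that the share of other cells in a library is a measure of what passed the gate and not of the spleen. The p-values of tests without a block measure the spread between the libraries of 2 animals per genotype. With the libraries of an animal paired, they measure how the genotype difference varies between the 2 animals. The test of members against other cells uses differences within libraries, so that its p-values are not a spread between animals. Fewer transcripts in summed counts can mean fewer cells of a type or less RNA per cell, which cannot be told apart there.

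Monocytes leave the bone marrow, circulate, and enter inflamed tissue, where they can become macrophages or cells that present antigen. Classical monocytes of the mouse carry Ly6C and the chemokine receptor CCR2, and non-classical monocytes carry little Ly6C and patrol the vessels. The macrophages of the splenic red pulp take up aged red cells and recycle their iron. Macrophages engulf infected and dying cells, make the complement component C1q, and present peptides on MHC class II, which interferon-gamma from activated T cells raises.

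In total, 21193300 and 20358780 UMIs were counted for WT1 and WT2, and 22922219 and 22672343 UMIs for KO1 and KO2. Members numbered 87 of 4941 cells in WT1 (1.76%, exact Clopper-Pearson 95% interval 1.41 to 2.167%), 124 of 8092 in WT2 (1.53%, 1.28 to 1.82%), 93 of 5366 in KO1 (1.73%, 1.40 to 2.12%) and 105 of 6494 in KO2 (1.62%, 1.32 to 1.95%). These intervals, like those below, cover counting error only. The 4 shares lay close together and the genotypes overlapped. WT libraries averaged 1.65% ± 0.162 (SD, n = 2) and Bcl3-/- libraries 1.68% ± 0.0822 (SD, n = 2), a difference of 0.0284 percentage points (2-sided exact permutation test, p = 1, with 0.33 the smallest p that 2 against 2 libraries allow). The sign of this difference turned under several other rules on cells. Members carried more RNA than the cells around them, with median counts of 7642, 4663, 6732 and 5797 UMIs per cell in WT1, WT2, KO1 and KO2 against 3552, 2007, 3599 and 2931 in the other cells. Summed over members, the libraries held 759537, 715509, 670884 and 731617 UMIs in the same order, and levels are given as CPM, a gene's UMIs per 1000000 UMIs of such a sum. No member barcode was shared between any pair of libraries, while 37 to 63 barcodes of kept cells were shared per pair.

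The markers that chose the members are given as a description, without a test, since the rule used them. Lyz2, which encodes lysozyme, stood at 14442 and 21586 CPM in WT1 and WT2, and at 16232 and 17731 CPM in KO1 and KO2, and at 283, 302, 239 and 218 CPM in the other cells of the same libraries. Csf1r, the receptor for the macrophage growth factor CSF-1, stood at 288, 324, 248.9 and 313 CPM in the same order of libraries. Tgfbi, a secreted matrix protein induced by TGF-beta, stood at 495, 604, 501 and 655 CPM. The C1q chains showed the same separation from the other cells: C1qa stood at 615, 785, 402 and 539.9 CPM, C1qb at 1037, 1233, 784 and 998 CPM and C1qc at 721, 682, 435 and 625 CPM. In free RNA, taken from barcodes of 50 UMIs or fewer, Lyz2 stood at 893, 1064, 848 and 951 CPM, more than in the other cells and far less than in members. No library had values like those of the other cells for any of the 6 genes.

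Myeloid genes outside the rule were high in these cells. Of 24 genes on a list of mononuclear phagocyte markers, 23 were found in the files, and all 23 were higher in members than in the other cells in all 4 libraries. Their summed level was 14504, 17014, 16018 and 16171 CPM in members against 639, 702, 802 and 659 CPM in the other cells. The most abundant was Fcer1g, the signalling chain shared by Fc receptors, at 2666, 3184, 2617 and 2604 CPM. Tyrobp, the adaptor DAP12, followed at 2012, 2236, 2422 and 2421 CPM, and Spi1, the transcription factor PU.1 that specifies myeloid cells, stood at 577, 659.7, 693 and 674 CPM against 21.5, 21.3, 32.1 and 26.1 CPM in the other cells. Among the 607 genes with at least 200 CPM in the members of every library, the 10 with the largest fold over the other cells were Tgfbi (71.3-fold), Lyz2 (67.2-fold), Slamf8 (65.6-fold), Csf1r (61.3-fold), H2-DMb1 (47.3-fold), Ly6i (46.5-fold), C1qb (46.0-fold), Chil3 (44.5-fold), Clec4n (44.4-fold) and C1qc (43.3-fold). The folds were taken over the 4 libraries together. That of Chil3 was 53.1 and 64.7 in WT1 and WT2 but 16.9 and 14.1 in KO1 and KO2, so its place rests on the WT libraries. Slamf8 is a surface receptor of activated myeloid cells, H2-DMb1 a chain of the chaperone that loads peptide on MHC class II, and Clec4n the fungal receptor Dectin-2. These folds describe the cells and were not tested, because all of these genes were measured in the cells that the rule had chosen.

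**Figure D1:**
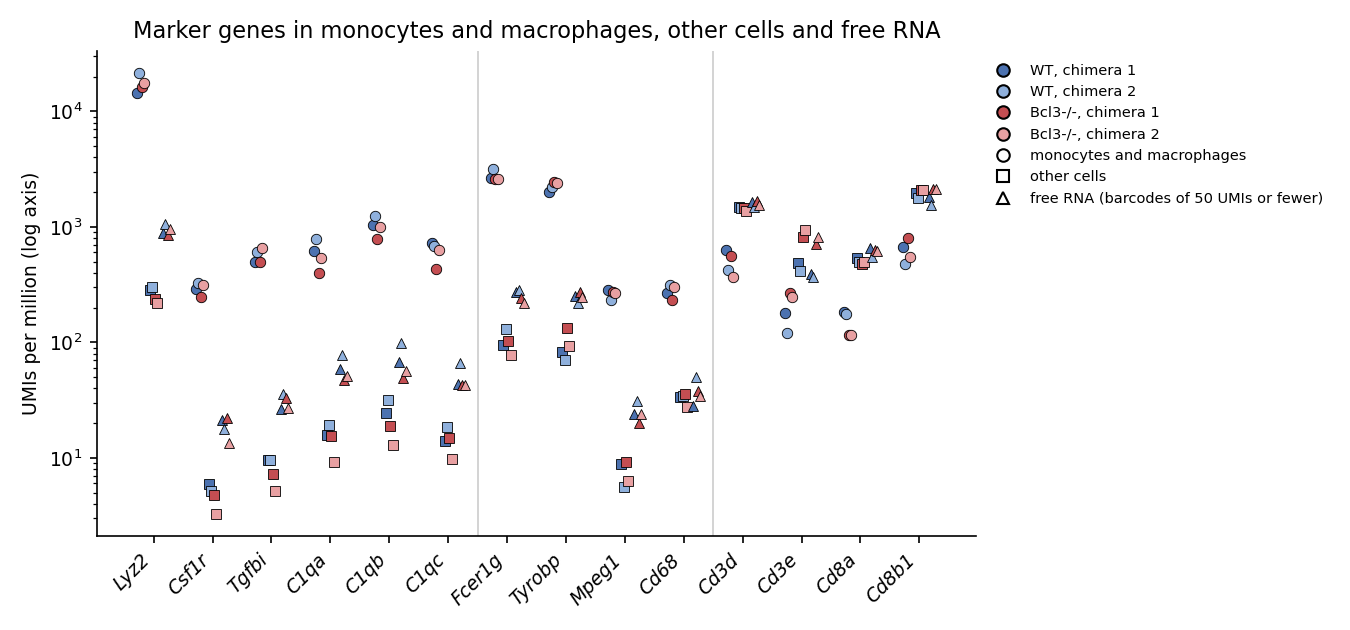
Level of 14 genes in CPM (log axis) in each of the 4 libraries, as circles for monocytes and macrophages, squares for other cells and triangles for free RNA; the 6 genes on the left chose the members and the 4 on the right belong to T cells. Lyz2 lies between 14442 and 21586 CPM in members and between 218 and 302 CPM in other cells, while Cd3d, Cd3e, Cd8a and Cd8b1 are lower in members than in other cells.

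Markers of other cell types were read in the same members. Plasmacytoid dendritic cell, eosinophil, basophil and mast cell, erythroid, platelet and stromal lists summed to at most 343 CPM in any library. The conventional dendritic cell list of 15 genes summed to 488, 472, 505 and 526 CPM in members against 241, 204, 241 and 226 CPM in the other cells. Naaa, a lysosomal hydrolase and its most abundant gene over the 4 libraries together, stood at 147, 161, 159 and 148 CPM, and 6 of the 15, Naaa, Sirpa, Batf3, Clec9a, Wdfy4 and H2-DMb2, were higher in members in all 4 libraries. Of the defining genes, Clec9a stood at 9.22, 2.80, 4.47 and 16.4 CPM and Xcr1 at 13.2, 0, 0 and 10.9 CPM, with Flt3, the growth factor receptor of that lineage, at 0, 1.40, 0 and 2.73 CPM and its transcription factor Zbtb46 at 2.63, 0, 1.49 and 1.37 CPM, and the part of such cells in the results was not tested. The neutrophil list summed to 567, 468, 778 and 965 CPM, against 1703, 1118, 2934 and 3325 CPM in the other cells and 2277, 1643, 4326 and 3433 CPM in free RNA, and 4 of its 13 genes were capped by the rule. The granulocyte precursor genes Elane and Mpo rested on 1 library: Elane stood at 7.90, 28.0, 0 and 208 CPM, with 152 of its UMIs in 7 cells of KO2. The plasma cell list was high in 3 libraries and low in WT1, with sums of 300.2, 2069.9, 2067 and 2354 CPM. Its most abundant gene, Jchain, which joins IgM and IgA into polymers, was found in 47, 59, 45 and 52 cells of WT1, WT2, KO1 and KO2. Both precursor genes were called higher in Bcl3-/- members with the block, and without KO2 their direction turned. Of the 17 genes called between the genotypes below, all 17 were also called among members with at most 1 UMI of the plasma cell gene Mzb1, and 16 among those with at most 1 UMI of Elane, Mpo and Prtn3.

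Transcripts of the T cell receptor complex were checked because a droplet with a T cell and a macrophage would pass the rule. At full depth almost every member had a UMI of Cd3d, Cd3e or Cd3g, with a median of 7, 3, 6 and 4 such UMIs per cell in WT1, WT2, KO1 and KO2 against 2, 1, 2 and 1 in B cells and 12, 7, 14 and 11 in the other cells. After each cell was thinned to 1000 UMIs, the share with such a UMI was 56.3% in WT1 (exact 95% interval 45.3 to 66.9%), 50% in WT2 (40.9 to 59.1%), 67.7% in KO1 (57.3 to 77.1%) and 51.4% in KO2 (41.5 to 61.3%). B cells, which should lack these genes, had 54.4%, 46.7%, 59.5% and 45% in the same order, at median depths of 2870, 2489, 3207 and 2913 UMIs before thinning. The other cells had over 95% in every library. The interval of the members included the B cell value in all 4 libraries, and the members' share was the higher of both in all 4. Per 10000 UMIs, members held 12.8, 8.40, 11.98 and 9.36 Cd3 UMIs and B cells 9.99, 9.71, 11.2 and 8.40, so that WT2 had the opposite order. Droplets with a T cell among the members were not told apart from free RNA by these values. The genotypes differed by 6.42 percentage points (2-sided exact permutation test, p = 0.67), and the sign turned without KO1, to -1.73 percentage points. The T cell list of 14 genes, 11 of them in the files, summed to 3683, 2759, 3531 and 2728 CPM in members, 3056, 3031, 3412 and 2618 CPM in B cells and 9827, 8859, 10814 and 10452 CPM in free RNA. Only 3, 9, 2 and 4 members held no such UMI before thinning, too few to carry a comparison on their own.

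**Figure D2:**
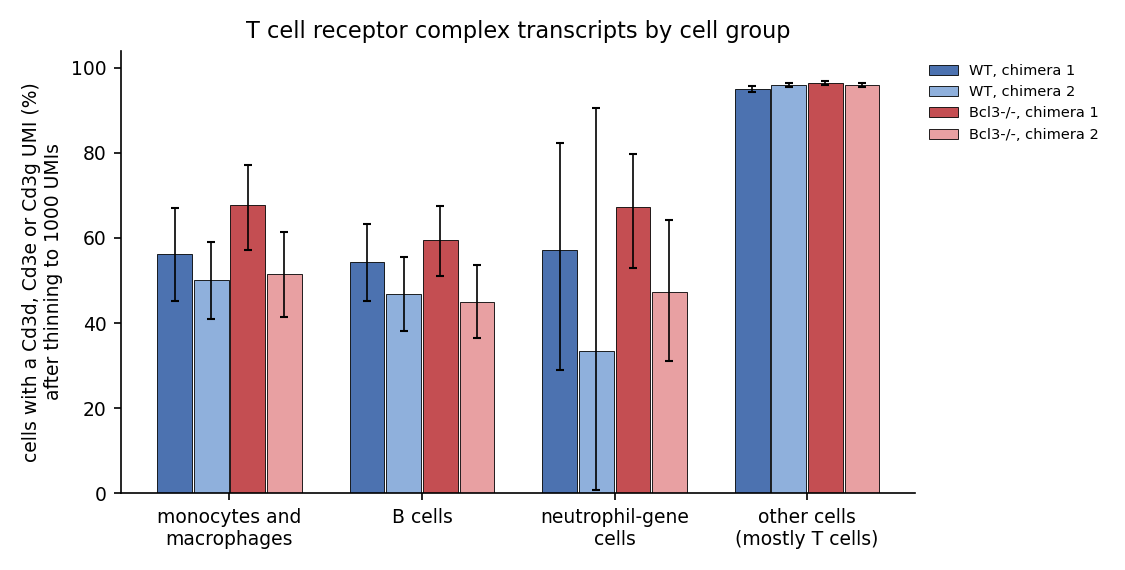
Percentage of cells with a Cd3d, Cd3e or Cd3g UMI after thinning to 1000 UMIs, by cell group and library, with exact 95% binomial intervals as error bars. Members lie between 50 and 67.7%, near the B cells, and the other cells lie above 95%.

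The threshold of 6 marker UMIs admitted some cells with few myeloid transcripts. The median number of Cd3 UMIs just inside it was 25, 4.5, 13 and 11 in WT1, WT2, KO1 and KO2, against 5, 3, 5 and 3 further inside. Members with 6 to 9 marker UMIs numbered 12, 10, 11 and 16 in the same order. In these, Fcer1g and Tyrobp together took 2.31, 5.47, 7.49 and 9.32 of every 10000 UMIs. Cells just outside, with 4 or 5 marker UMIs, had 2.30, 1.84, 4.11 and 2.86, and members with 10 or more had 57.5, 57.2, 55.8 and 58.0. The cells just inside the threshold were level with those outside it in WT1 and above them in the other 3 libraries, but lay well below the members further inside, and the label rests on the members with 10 or more marker UMIs, which were 75, 114, 82 and 89.

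Members differed among themselves along C1q, whose 3 genes are part of the rule that chose them and were capped in the B cells by the same rule, so that the shares below are a description. After thinning to 1000 UMIs, at least 2 UMIs of C1qa, C1qb and C1qc were found in 32.2% of members in WT1 (exact 95% interval 22.6 to 43.1%), 36.3% in WT2 (27.8 to 45.4%), 26.9% in KO1 (18.2 to 37.1%) and 36.2% in KO2 (27.0 to 46.1%). The mean over the 4 libraries was 32.9% ± 4.44 (SD, n = 4), against 0.8%, 0, 0.676% and 0 of B cells, where 0 of 137 and 0 of 140 cells allow a share of up to 2.19% and 2.14% (3 counts of the total). At full depth, members with 2 or more C1q UMIs, called C1q-high here, numbered 48, 63, 50 and 50, and C1q-low members 39, 61, 43 and 55. The split follows depth in part, as the C1q-high members had medians of 8888, 6154, 7041 and 5949.5 UMIs and the C1q-low members 5822, 4136, 6397 and 5742. It is a cut through a range and not a border between types.

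The classical monocyte genes went with the C1q-low members. All 12 genes of that list were higher in C1q-low than in C1q-high members in all 4 libraries, as were 12.4% of all genes tested, and their sum was 12769, 17575, 12497 and 11158 CPM against 5009.9, 5882, 6365 and 4772 CPM. Of the 12, 10 were higher in members than in the other cells in all 4 libraries, and Ccr2 and Ly6c2 were not. Ly6c2, a Ly6C gene, stood at 2192, 2735, 2831 and 2433 CPM in members and at 4178, 3636, 3936 and 3793 CPM in the other cells. Examples here and for the macrophage genes were chosen after their values were seen. Ccr2, which guides monocytes out of the marrow, stood at 354, 432, 715 and 652 CPM in C1q-low members and 177, 237, 254 and 316 CPM in C1q-high members. Fn1, which encodes fibronectin, stood at 121, 173, 89.8 and 67.7 CPM against 8.34, 7.04, 8.10 and 30.1 CPM, and F13a1, a coagulation factor chain of monocytes, at 107, 152, 136 and 108 CPM against 27.1, 11.7, 16.2 and 30.1 CPM. The non-classical list showed no shared direction, with 1 of its 12 genes higher in C1q-low members in all 4 libraries and none in C1q-high members. At least 2 UMIs summed over the non-classical genes Treml4, Ace, Eno3 and Cd300e were found in 34.5%, 21.0%, 29.0% and 17.1% of members of WT1, WT2, KO1 and KO2 at full depth and in 4.60%, 5.65%, 3.23% and 4.76% after thinning. Treml4 and Ace stood at 64.2 to 103 CPM and 11.2 to 27.6 CPM over the members of the 4 libraries.

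The splenic macrophage genes went the other way, with 12 of 18 genes higher in C1q-high members in all 4 libraries, against 11.6% of all genes tested, and none higher in C1q-low members. Their sum was 18086, 19427, 15425 and 17351 CPM in C1q-high and 10551, 9841, 8479.8 and 10211 CPM in C1q-low members. Spic, the transcription factor of red pulp macrophages, stood at 91.7, 169, 143 and 111 CPM against 17.9, 10.4, 3.33 and 7.52 CPM. Slc40a1, the iron exporter ferroportin, stood at 196, 131, 83.7 and 132 CPM against 3.57, 10.4, 3.33 and 32.6 CPM, and Vcam1, an adhesion molecule of the same macrophages, at 98.0, 77.4, 64.8 and 69.2 CPM against 0, 27.7, 3.33 and 40.1 CPM. Hmox1, which breaks down haem, stood at 315, 495, 227 and 361 CPM against 179, 72.6, 26.6 and 45.1 CPM. Other genes of resident splenic macrophages were scarce, as Siglec1 and Marco, which mark the macrophages around the marginal zone, reached at most 6.99 and 2.98 CPM, and Timd4, a receptor for dying cells, had no UMI in members of any library. T cell transcripts moved with the same split: 7 of the 11 T cell genes were higher in C1q-high members of all 4 libraries, at sums of 3813, 3154, 3933 and 3732 CPM against 3459, 2176, 3036 and 1892 CPM, and their part in these differences was not tested.

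**Figure D3:**
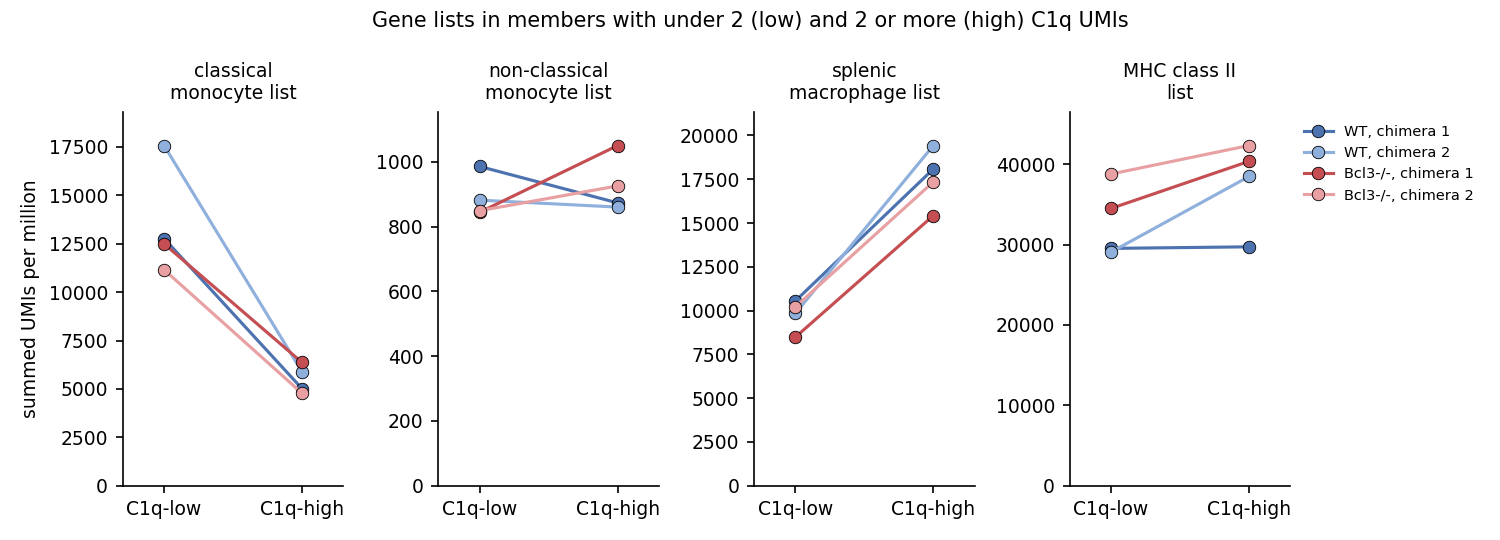
Summed level of 4 gene lists in CPM, in C1q-low members (under 2 C1q UMIs) and C1q-high members (2 or more), with 1 line per library. The classical monocyte list falls and the splenic macrophage list rises from C1q-low to C1q-high in all 4 libraries, and the non-classical list has no shared direction.

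The comparison of Bcl3-/- with WT members asks which genes differ between members of the libraries sorted as Bcl3-/- and those sorted as WT. Of 6172 genes tested besides the 12 genes of the rule, 14 were higher in Bcl3-/- members (0.227% of the genes tested) and 3 were lower (0.0486%), 0.275% in either direction (edgeR quasi-likelihood test on counts summed per library, Benjamini-Hochberg adjusted p under 0.05). With chimera as a replicate block, which pairs the libraries of 1 animal, 74 genes were higher (1.2%) and 47 lower (0.762%), 1.96% in all, and this count held all 17 of the former. The fit with the block estimates its spread from fewer residual degrees of freedom than the fit without it. Genes called only with the block carry this limit throughout. Among cells with at least 10 marker UMIs, 52 genes were higher and 25 lower without the block, and these also held all 17. The groups did not overlap for any of the 17, as was also the case for 40.9% of all genes tested. The median log2 fold change over all genes tested was 0.00.

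**Figure D4:**
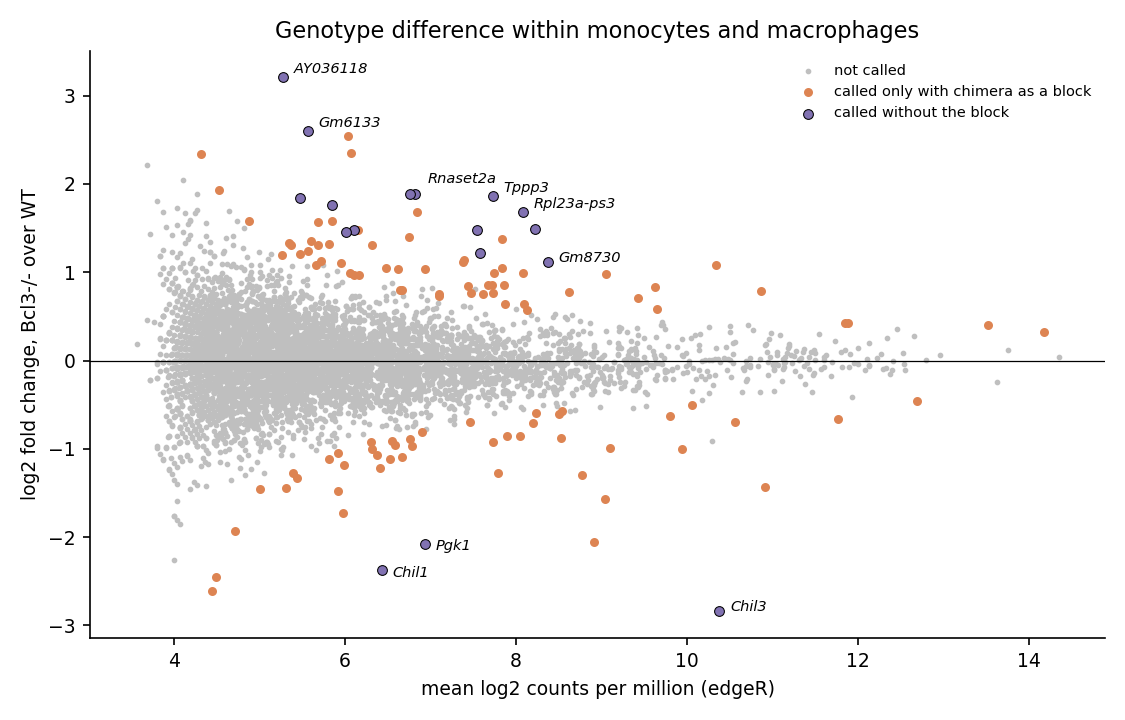
Log2 fold change of Bcl3-/- over WT members against mean log2 CPM (edgeR) for the 6172 genes tested. The 17 genes called without the block are purple and those called only with it are orange, with Chil3, Chil1 and Pgk1 as the purple points below 0.

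The 3 genes lower in Bcl3-/- members were Chil3, Chil1 and Pgk1. Chil3 and Chil1 encode chitinase-like proteins, which bind chitin without cutting it and are secreted by myeloid cells; Chil3 (Ym1) is a product of monocytes and of alternatively activated macrophages. Bcl-3 is carried to DNA by p50 and p52, which bind kappaB sites, and the myeloid factor PU.1 binds sites with an ETS core. The 250 bases before the RefSeq start site, which for Chil1 lies slightly upstream of the start that GENCODE gives, of both chitinase-like genes are shown because both genes fell and encode the same kind of protein. Capitals mark matches to the kappaB letters, which are GGG, any 5 bases and CC, and to the ETS core letters GGAAGT, on either strand, in the RefSeq sequence of build GRCm38.p6, read 5′ to 3′ on the strand of the gene.
Chil3, chr3:106167565-106167814, minus strand: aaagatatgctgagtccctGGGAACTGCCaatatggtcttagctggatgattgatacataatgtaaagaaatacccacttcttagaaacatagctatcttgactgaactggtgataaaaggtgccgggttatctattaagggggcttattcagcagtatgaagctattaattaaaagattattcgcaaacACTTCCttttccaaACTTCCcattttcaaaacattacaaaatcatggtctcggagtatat
Chil1, chr1:134181906-134182155, plus strand: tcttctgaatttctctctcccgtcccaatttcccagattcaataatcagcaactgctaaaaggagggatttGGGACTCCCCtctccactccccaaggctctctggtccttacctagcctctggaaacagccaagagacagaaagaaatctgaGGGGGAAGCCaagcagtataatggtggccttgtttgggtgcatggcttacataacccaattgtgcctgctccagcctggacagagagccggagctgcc
The Chil3 window held 1 kappaB match, 231 to 222 bases before the start site, and 2 matches to the ETS core on the opposite strand, 60 to 55 and 46 to 41 bases before it. The Chil1 window held a kappaB match on both strands 179 to 170 bases before the start site and another 98 to 89 bases before it, and no match to the full letters GGAAGT. Of 32851 windows of the same length before start sites, 45.8% held the kappaB letters and 19.7% the ETS core, so that these matches are common and describe the windows only.

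Chil3 (chr3:106147554-106167564, minus strand in GENCODE vM21, GRCm38) stood at 1364 and 3181 CPM in WT1 and WT2, and at 282 and 353 CPM in KO1 and KO2. Both WT libraries lay above both Bcl3-/- libraries, and the mean was 7.16-fold higher in WT members. The log2 fold change was -2.84 (SE 0.32, adjusted p = 0.00407), with -2.27 in chimera 1 and -3.17 in chimera 2, and with the replicate block it was -2.74 (SE 0.17, adjusted p = 2.41e-09). Chil3 UMIs were found in 47, 85, 33 and 33 members of WT1, WT2, KO1 and KO2. After thinning to 1000 UMIs, 34.5%, 56.5%, 16.1% and 19.05% of members had a Chil3 UMI, against at most 3.65% of B cells in any library (genotypes of members, 2-sided exact permutation test, p = 0.33, the smallest the design allows). Most of the transcript was in the C1q-low members, at 3269, 6721, 549 and 619 CPM, and the C1q-high members stood at 252, 781, 64.8 and 33.1 CPM. In the C1q-low members with at most 1 UMI of Treml4, Ace, Eno3 and Cd300e, which numbered 26, 53, 37 and 46, Chil3 stood at 4647, 6815, 544 and 658 CPM, so that the genotypes were apart there too. The fall was called in C1q-low members (-3.10, adjusted p = 0.000429), in those of them with few non-classical UMIs (-3.25, adjusted p = 0.000271), in C1q-high members (-3.32, adjusted p = 0.00459) and in members without a Cd3 UMI after thinning (-3.14, adjusted p = 0.00164). In members without any Cd3 UMI at full depth, which numbered 3, 9, 2 and 4, it was -3.36 and missed the threshold (adjusted p = 0.0825). Free RNA held 65.3, 151, 46.1 and 37.5 CPM and the other cells 25.7, 49.1, 16.6 and 24.96 CPM.

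Chil1 (chr1:134182176-134190181, plus strand) stood at 108 and 162 CPM in WT against 37.3 and 15.0 CPM in Bcl3-/- members, with a log2 fold change of -2.38 (SE 0.35, adjusted p = 0.0191) and -1.51 in chimera 1 and -3.37 in chimera 2. It was found in 18, 25, 6 and 3 members of WT1, WT2, KO1 and KO2, so that its KO2 value rests on 3 cells. It missed the threshold in C1q-high members (-1.59, adjusted p = 0.0894), in C1q-low members (-2.97, adjusted p = 0.105) and in those of them with few non-classical UMIs (-4.06, adjusted p = 0.117). Pgk1 (chrX:106187100-106203699, plus strand), a kinase of glycolysis, stood at 242 and 129 CPM in WT against 47.7 and 41.0 CPM in Bcl3-/- members, with a log2 fold change of -2.07 (SE 0.31, adjusted p = 0.0191). The other cells had the same order for Pgk1, at 192 and 103 CPM against 70.1 and 36.5 CPM, and differed by -1.47 (SE 0.39, adjusted p = 0.188) there.

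Of the 14 genes higher in Bcl3-/- members, Tppp3 (chr8:105467493-105471526, minus strand), a protein that promotes the assembly of microtubules, stood at 90.8 and 85.3 CPM in WT against 341 and 301 CPM in Bcl3-/- members. Both Bcl3-/- libraries lay above both WT libraries, and the log2 fold change was 1.86 (SE 0.18, adjusted p = 0.0021), with 1.90 in chimera 1 and 1.81 in chimera 2. Sirpb1b, an activating receptor of the SIRP family, stood at 11.8 and 23.8 CPM in WT against 56.6 and 71.1 CPM in Bcl3-/- members, a change of 1.84 (SE 0.32, adjusted p = 0.044). BC028528 stood at 30.3 and 37.7 CPM in WT against 87.9 and 103 CPM in Bcl3-/- members and changed by 1.48 (SE 0.24, adjusted p = 0.0266). Both genes were scarce in the other cells, at most 3.93 CPM for Sirpb1b and 2.13 CPM for BC028528. Nmt1, which attaches myristate to proteins, stood at 25.02 and 39.1 CPM in WT against 87.9 and 88.8 CPM in Bcl3-/- members and changed by 1.46 (SE 0.26, adjusted p = 0.0494).

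The other 10 were Rnaset2a and Rnaset2b, AY036118, Gm6133, Gm2000 and Gm8730, which are known by sequence identifiers only, and Rps18-ps3, Rpl23a-ps3, Rps27rt and Rpl6l, which are copies or pseudogenes of ribosomal protein genes. Rnaset2a and Rnaset2b are near-identical copies of the gene for ribonuclease T2 on chromosome 17, and stood at 46.1 and 44.7 CPM in WT against 109 and 229.6 CPM in Bcl3-/- members for Rnaset2a and 51.3 and 36.3 CPM in WT against 112 and 215 CPM in Bcl3-/- members for Rnaset2b. Reads of such copies cannot be split with certainty, so the values of these genes are uncertain. AY036118 had the largest log2 fold change, 3.21 (SE 0.48, adjusted p = 0.0191), from 5.27 and 8.39 CPM in WT against 38.8 and 88.8 CPM in Bcl3-/- members. The largest level among them was that of Gm8730, at 228 and 175 CPM in WT against 455 and 421 CPM in Bcl3-/- members.

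The 17 genes were then read in the other cells of the same libraries, most of them T cells. All 17 had the same sign there, and 7 were called in that comparison without a block, which called 27 genes higher (0.237%) and 6 lower (0.0526%) of 11416 tested, 0.289% in all. With chimera as a replicate block, 551 of these 11416 genes were higher and 557 lower in the other cells. Calls of single genes in the other cells are given without the block. A test of the difference between both populations, with library as a block, called 48 of 11579 genes (0.415%), 25 more positive in members (0.216%) and 23 more negative (0.199%). Of the 17, it called Chil3, Chil1 and Tppp3. For Chil3 the genotype difference in members minus that in the other cells was -1.95 on the log2 scale (adjusted p = 1.4e-18), for Chil1 it was -2.21 (adjusted p = 1.49e-05), and for Tppp3 it was 1.36 (adjusted p = 8.79e-06). For the other 14 a difference between the populations was not shown, and AY036118, for example, stood at 8.64 and 6.59 CPM against 39.9 and 88.9 CPM in the other cells, close to its values in members. Members without a Cd3 UMI after thinning numbered 38, 62, 30 and 51 in WT1, WT2, KO1 and KO2. Of the 17 genes, 16 could be tested there, and 3 were called, Chil3, Chil1 (-2.76, adjusted p = 0.0424) and Tppp3 (1.92, adjusted p = 0.0447). The other 13 kept their sign in these fewer cells. Pgk1 stood at -2.08 there and at -2.07 among all members, and the other 12 lay between 1.14 for Gm2000 and 3.40 for Gm6133, against 1.12 for Gm8730 to 2.60 for Gm6133 among all members.

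**Figure D5:**
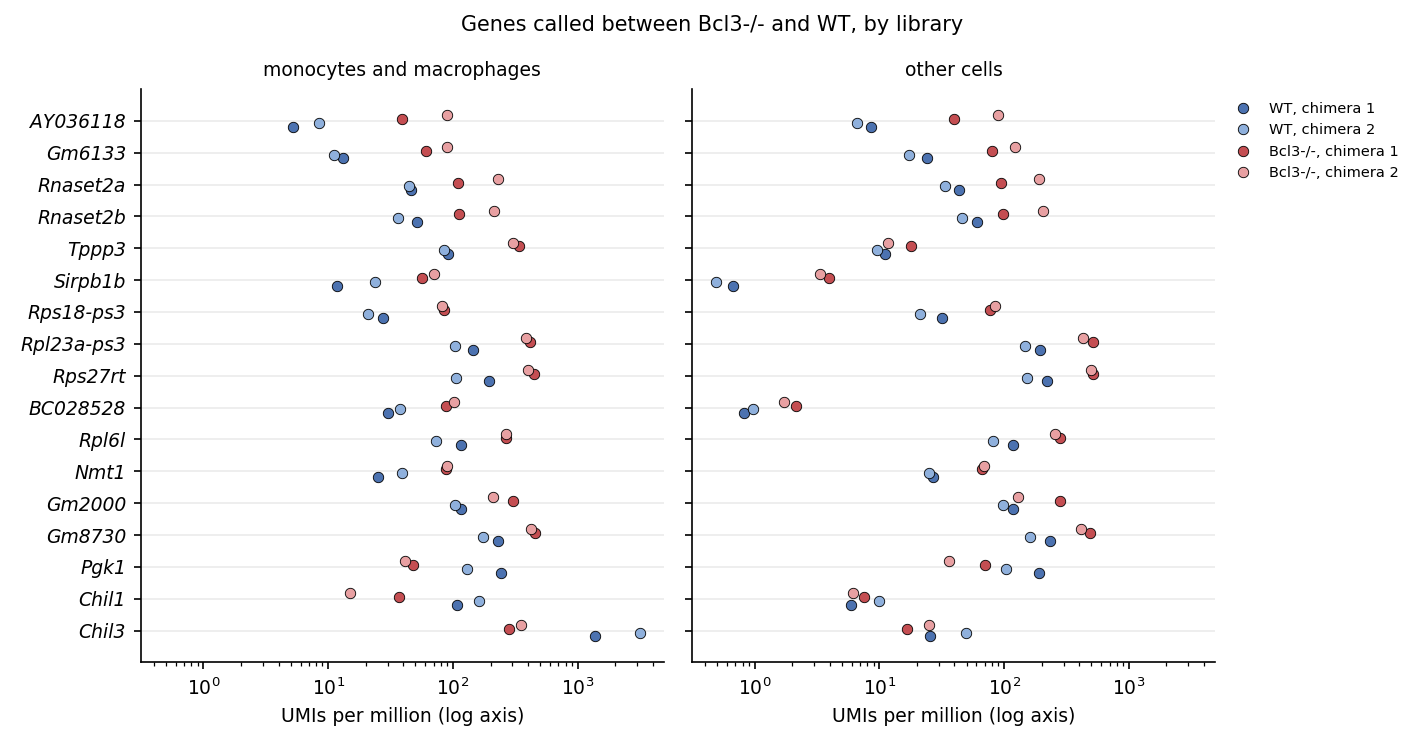
Level of the 17 genes called between Bcl3-/- and WT members, in CPM (log axis), in members on the left and other cells on the right, with 1 point per library. Chil3, Chil1 and Tppp3 separate by genotype more widely in members than in other cells, and genes such as Rpl23a-ps3 and Nmt1 separate alike on both sides.

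Some genes of antigen presentation rose in Bcl3-/- members when the libraries of an animal were paired. Of 15 genes on the MHC class II list, 13 were tested; without the block none was called, and with it H2-Eb1, Cd74 and Ciita were higher and none was lower, against 1.2% of all genes higher with the block. The median log2 fold change was 0.33, with 9 of 13 genes above 0, against 0.00 and 3096 of 6172 over all genes tested. Ciita, the factor that switches on the class II genes, stood at 23.7 and 26.6 CPM in WT against 61.1 and 68.3 CPM in Bcl3-/- members and had a log2 fold change of 1.36 (SE 0.26, adjusted p = 0.0635) without the block and 1.36 (SE 0.28, adjusted p = 0.00782) with it. The SE of Ciita was thus not smaller with the block. Cd74, the invariant chain of class II, stood at 14563 and 17213 CPM in WT against 19446 and 20526 CPM in Bcl3-/- members, a smaller change of 0.33 (SE 0.08, adjusted p = 0.0344) with the block and 0.33 (SE 0.17, adjusted p = 0.519) without it. H2-Eb1, a class II beta chain, stood at 2978 and 3142 CPM in WT against 4124 and 4105 CPM in Bcl3-/- members, 0.42 (SE 0.11, adjusted p = 0.0374) with the block and adjusted p = 0.382 without it. H2-Aa, the alpha chain of I-A, had both Bcl3-/- libraries above both WT libraries, at 4574 and 4988 CPM against 5925 and 6374 CPM, and was not called with the block, at 0.36 (SE 0.10, adjusted p = 0.0614), and for H2-Ab1 the genotypes overlapped. The summed level of the list was 29646, 34666, 37726 and 40387 CPM in WT1, WT2, KO1 and KO2.

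Of the 16 genes on the class I list, all tested, none was called with or without the block, where 1.96% and 0.275% of all genes were, and the median log2 fold change was -0.05. B2m, the light chain of class I, stood at 5465 and 5616 CPM against 5947 and 5839 CPM in WT and Bcl3-/- members, and H2-K1 at 1987 and 2500.3 CPM against 1769 and 1777 CPM.

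Genes induced by interferon-gamma gave 3 calls as well, and the list shares Ciita with the class II list. Of 23 genes, 21 were tested, none was called without the block, and with it Gbp2, Iigp1 and Ciita were higher and none was lower, against 1.2% of all genes higher, at a median log2 fold change of 0.33 with 17 of 21 above 0, as were 3096 of all 6172 genes tested. Gbp2, a guanylate-binding protein that attacks the vacuoles of pathogens, stood at 406 and 605 CPM in WT against 817 and 834 CPM in Bcl3-/- members, 0.73 (SE 0.15, adjusted p = 0.00989) with the block and adjusted p = 0.193 without it. Iigp1, an immunity-related GTPase, stood at 115 and 175 CPM in WT against 225 and 299 CPM in Bcl3-/- members, 0.86 (SE 0.16, adjusted p = 0.0046) with the block and adjusted p = 0.143 without it. The chemokine Cxcl9, which the same cytokine induces, had lower values in Bcl3-/- members, at 237 and 295 CPM against 169.9 and 201 CPM, and was not called, at -0.52 (SE 0.16, adjusted p = 0.103) with the block. Iigp1 stood at 16.0 and 29.5 CPM against 10.7 and 14.6 CPM and Gbp2 at 155 and 187 CPM against 126 and 138 CPM in the other cells. Of 30 genes on the type I interferon list, 26 were tested, none was called without the block and with it Oas1a was lower, against 0.762% of all genes lower. Oas1a, a sensor of double-stranded RNA, stood at 89.5 and 134 CPM in WT against 59.6 and 36.9 CPM in Bcl3-/- members, -1.21 (SE 0.26, adjusted p = 0.0121) with the block and adjusted p = 0.122 without it. Its values had the same order outside the members, at 76.1 and 81.6 CPM against 52.8 and 35.2 CPM in the other cells, 45.1 and 25.9 CPM against 22.05 and 12.1 CPM in B cells and 77.3 and 74.8 CPM against 42.1 and 20.8 CPM in free RNA. The median of that list was -0.00427, and Ifitm3, which blocks virus entry, stood at 1864 and 2162 CPM against 2233 and 1968 CPM.

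Genes for haem, iron and lipoprotein handling were among those lower with the block. Of the 18 splenic macrophage genes, 11 were tested, 1 of 11 had a log2 fold change above 0, and the median was -0.32. None was called without the block, and Hmox1 and Apoe were lower with it, against 0.762% of all genes tested. Hmox1 stood at 265 and 324 CPM in WT against 137 and 189 CPM in Bcl3-/- members, -0.86 (SE 0.16, adjusted p = 0.00306) with the block and adjusted p = 0.0905 without it. Apoe, the main apolipoprotein of macrophages, stood at 424 and 495 CPM in WT against 191 and 310.3 CPM in Bcl3-/- members, -0.90 (SE 0.16, adjusted p = 0.00153) with the block and adjusted p = 0.116 without it. Its values had the same order outside the members, at 278 and 298 CPM against 137 and 149 CPM in B cells. They stood at 17.6 and 19.7 CPM against 12.6 and 9.71 CPM in the other cells and 50.6 and 50.4 CPM against 19.1 and 23.9 CPM in free RNA. The fall of Apoe was thus not particular to members. Without the block, Apoe was at -0.54 (adjusted p = 0.351) in C1q-high members. It was at -1.37 (adjusted p = 0.207) in C1q-low members with few non-classical UMIs. Apoe (chr7:19696109-19699188, minus strand) lies near Bcl3 on the same chromosome, and none of the other 6 tested genes of that region was called, against 1.96% of all genes with the block. Of all 7 tested there, 1 had a log2 fold change above 0, and the median was -0.13. Fth1, the heavy chain of ferritin, stood at 7481 and 7336 CPM in WT against 4923 and 5918 CPM in Bcl3-/- members and fell with the block, -0.46 (SE 0.10, adjusted p = 0.0121), at adjusted p = 0.351 without it. Ftl1, the light chain, stood at 13202 and 13227 CPM against 10848 and 11574 CPM and was not called, at -0.24 (SE 0.08, adjusted p = 0.19) with the block. Of 11 genes tested on the iron list, Hmox1 and Fth1 were the 2 called with the block, and of 11 tested on the lipid list Apoe was the only 1, against the same 0.762%. Over 3, 9, 2 and 4 members without any Cd3 UMI, the fold changes of Apoe and Fth1 had the opposite sign.

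Of the 12 classical monocyte genes, 11 were tested, Chil3 was lower in both fits, and with the block Ccr2 and Plac8 were higher, against 1.2% of all genes tested higher and 0.762% lower with the block. Ccr2 stood at 242 and 316 CPM in WT against 461 and 499 CPM in Bcl3-/- members, 0.79 (SE 0.15, adjusted p = 0.00487) with the block and adjusted p = 0.0959 without it, and Plac8, a small cysteine-rich protein, at 3161 and 3057 CPM in WT against 4436 and 3923 CPM in Bcl3-/- members, 0.42 (SE 0.11, adjusted p = 0.0395) with the block and adjusted p = 0.417 without it. In the other cells Ccr2 had the same order, at 264 and 274 CPM against 308 and 346 CPM. It stood at 320 and 278 CPM against 321 and 350 CPM in free RNA, and the part of T cell transcripts in its values was not tested. The median of the list was 0.10. Ear2, a ribonuclease on the non-classical list, stood at 65.8 and 85.3 CPM in WT against 41.7 and 31.4 CPM in Bcl3-/- members and fell with the block, -1.05 (SE 0.27, adjusted p = 0.0429), at adjusted p = 0.171 without it, and no other gene of the 11 tested on that list was called. S100a4, a calcium-binding protein of migrating cells, stood at 370.0 and 317 CPM in WT against 751 and 611 CPM in Bcl3-/- members and rose with the block, 0.98 (SE 0.15, adjusted p = 0.000351), at adjusted p = 0.0627 without it, and its values in the other cells had the same order, at 860.2 and 664 CPM against 1354 and 1364 CPM. None of the 23 tested genes on the mononuclear phagocyte list was called in either fit.

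Receptors, regulators and mediators gave few calls. No gene was called, with or without the block, among the 14 tested Fc and phagocytic receptor genes, the 21 tested lysosomal and cathepsin genes, the 8 tested complement genes besides C1q, the 10 tested Toll-like receptor genes, the 11 tested inflammatory cytokine and receptor genes, the 16 tested NF-kappaB and IkappaB genes or the 19 tested regulators of macrophage growth and identity, where 1.96% of all genes were called with the block and 0.275% without it. The medians of these 7 lists lay between -0.17 and 0.24. Fcgr3, an activating Fc receptor, stood at 355 and 453 CPM against 453 and 549 CPM, Ctss, the protease that trims the invariant chain, at 1475 and 1994 CPM against 1367 and 1642 CPM, Nfkbia, the classical inhibitor of NF-kappaB, at 388 and 405 CPM against 303 and 265 CPM and Cebpb, a factor of activated macrophages, at 895 and 976 CPM against 1051 and 1192 CPM. On the chemokine list, 9 of 17 genes were tested, Ccl3 was lower and Ccl5 higher with the block, against 0.762% of all genes lower and 1.2% higher, and none was called without it. Ccl3, an attractant of T cells and monocytes, stood at 124 and 37.7 CPM in WT against 34.3 and 24.6 CPM in Bcl3-/- members, and with the block it fell, -1.38 (SE 0.29, adjusted p = 0.011), at adjusted p = 0.291 without it. Its fall rests on WT1, without which the log2 fold change was -0.33. Ccl5 is abundant in T cells, stood at 8845 and 10728 CPM against 13844 and 12017 CPM in members and 20881 and 36423 CPM against 34282 and 41509.9 CPM in the other cells, and cannot be told apart from free T cell RNA here. The same holds for Cd3e, which was higher with the block, 0.79 (SE 0.17, adjusted p = 0.011). Gzmb, a cytotoxic protease of T cells, was lower with the block, -0.95 (SE 0.15, adjusted p = 0.000686), and stood at 877 and 529.7 CPM against 392 and 319.8 CPM in members, 1747 and 1680.4 CPM against 1483 and 1479.7 CPM in the other cells and 1368 and 1218 CPM against 1292 and 1379 CPM in free RNA. The other cells had the order of the members and the free RNA did not, and the part of T cell transcripts in the Gzmb values was not tested. None of these 3 was called without the block. No gene was called in either fit among the 7 tested conventional dendritic cell genes, the 3 of plasmacytoid dendritic cells or the 2 of natural killer cells, and 1 B cell gene was tested and not called. Of 13 tested genes on the NADPH oxidase and antimicrobial list, S100a4 was higher and Hp lower with the block, and Ccr2 was the only 1 of 17 tested chemokine receptor and adhesion genes, against the same shares of all genes.

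Immediate early and cell cycle genes completed the lists. Of 13 tested genes on the AP-1 and immediate early list, Zfp36 and Btg2 were higher and Jun lower with the block, against 1.2% of all genes higher and 0.762% lower, and none was called without it. Zfp36, which destabilises cytokine mRNAs, stood at 51.3 and 39.1 CPM in WT against 79.0 and 99.8 CPM in Bcl3-/- members, 0.97 (SE 0.24, adjusted p = 0.0374) with the block and adjusted p = 0.152 without it, and Jun, a chain of AP-1, at 65.8 and 145 CPM in WT against 46.2 and 53.3 CPM in Bcl3-/- members, -1.06 (SE 0.25, adjusted p = 0.0231) with the block and adjusted p = 0.256 without it. All 20 cell cycle genes were tested and all had a log2 fold change below 0, with a median of -0.61, and Rrm2, Ccnb2 and Birc5 were lower with the block, against 0.762% of all genes. Rrm2, a subunit of ribonucleotide reductase, stood at 89.5 and 88.0 CPM in WT against 14.9 and 38.3 CPM in Bcl3-/- members, -1.74 (SE 0.29, adjusted p = 0.00125) with the block and adjusted p = 0.062 without it. The values of KO1 were lowest for all 3, and the list summed to 2408, 2088, 1380.3 and 2221 CPM in WT1, WT2, KO1 and KO2, so that KO2 lay between both WT libraries. In the other cells the list summed to 2833, 2762, 2259.8 and 2755 CPM in the same order, with KO1 lowest there too.

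Among genes with a mean of at least 30 CPM and 1 direction in both chimeras, the largest rises called with the block and not without it were Jchain and Gm26917, and among the largest falls were Hist1h2ap, Rrm2, Gm10116, Smc2, Ccl3 and Gstp1. Hist1h2ap, a replication-dependent histone gene, stood at 899 and 589.8 CPM in WT against 279 and 80.6 CPM in Bcl3-/- members, -2.20 (SE 0.21, adjusted p = 9.07e-07) with the block and adjusted p = 0.08 without it. Gstp1, a glutathione transferase, stood at 328 and 271 CPM in WT against 173 and 75.2 CPM in Bcl3-/- members and at 218 and 159 CPM against 123 and 49.5 CPM in the other cells. Jchain, a plasma cell gene, stood at 105, 1525, 1580.0 and 1848 CPM in WT1, WT2, KO1 and KO2, 1.86 (SE 0.45, adjusted p = 0.032) with the block and adjusted p = 0.628 without it. Only WT1 was low, and without it the log2 fold change was 0.20.

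Genotype effects differed between members and the other cells for the genes counted above, and besides the genes of the rule the 5 of lowest p that were more positive in members are described first. The test gives the effect in members minus that in the other cells. Apol7c, an apolipoprotein L family member, stood at 73.7 and 129 CPM in WT against 194 and 250.1 CPM in Bcl3-/- members and at 3.602 and 7.13 CPM against 2.89 and 2.55 CPM in the other cells, a difference between the effects of 2.08 (SE 0.28, adjusted p = 1.82e-07). For Iigp1 the difference was 1.67 (SE 0.20, adjusted p = 8.41e-10) and for Gbp2 it was 1.08 (SE 0.16, adjusted p = 5.83e-07). Both had higher values in Bcl3-/- members and lower values in the Bcl3-/- other cells. There the log2 fold change was -0.86 (SE 0.27) for Iigp1 and -0.39 (SE 0.10) for Gbp2, and neither was called without the block. Plac8 stood at 1343 and 1204 CPM against 1146 and 1033 CPM in the other cells and gave a difference of 0.63 (SE 0.10, adjusted p = 8.79e-06), and Jchain gave 1.75 (SE 0.27, adjusted p = 6.74e-06). The value of Jchain rested on WT1, as it was 0.30 (adjusted p = 0.943) without WT1 and 4.06 without WT2. Among members without a Cd3 UMI after thinning, Apol7c (1.31, adjusted p = 0.651), Gbp2 (0.87, adjusted p = 0.106), Plac8 (0.68, adjusted p = 0.0919) and Jchain (0.52, adjusted p = 1) were not called.

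Of the 5 genes of lowest p that were more negative in members, Chil3 and Chil1 are described above. Hp, which encodes the haemoglobin scavenger haptoglobin, stood at 263 and 442 CPM in WT against 189 and 241 CPM in Bcl3-/- members and at 16.4 and 15.9 CPM against 26.8 and 28.0 CPM in the other cells, a difference between the effects of -1.46 (SE 0.19, adjusted p = 8.84e-08). Wfdc17, a small secreted protein of myeloid cells, stood at 849 and 885 CPM in WT against 1019.5 and 908 CPM in Bcl3-/- members and at 35.6 and 29.2 CPM against 96.5 and 62.1 CPM in the other cells, with a difference of -1.13 (SE 0.16, adjusted p = 3.22e-07). Il1b, which encodes interleukin-1beta, stood at 54.0 and 65.7 CPM in WT against 13.4 and 72.4 CPM in Bcl3-/- members and at 10.8 and 5.35 CPM against 28.6 and 23.4 CPM in the other cells, with a difference of -2.21 (SE 0.37, adjusted p = 2.18e-05). In members only KO1 was low for Il1b, and the difference was -1.30 (adjusted p = 0.0987) without KO1 and -3.97 without KO2. The Bcl3-/- values of these 3 genes were higher in the other cells, where none was called without the block. The log2 fold change there was 0.74 (SE 0.10) for Hp, 1.28 (SE 0.24) for Wfdc17 and 1.67 (SE 0.31) for Il1b. In members Hp was lower with the block (-0.69, SE 0.16, adjusted p = 0.0194), and neither Wfdc17 (0.15, SE 0.13, adjusted p = 0.719) nor Il1b (-0.56, SE 0.33, adjusted p = 0.506) was called. The neutrophil list had the same order there, at 1703 and 1118 CPM in the WT and 2934 and 3325 CPM in the Bcl3-/- other cells, and at 2277 and 1643 CPM against 4326 and 3433 CPM in free RNA, and its part in the values of Hp, Wfdc17 and Il1b was not tested.

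The genes that differed most clearly between genotypes in the other cells were read in members. Mir142hg, the host gene of miR-142, stood at 7.90 and 8.39 CPM against 43.2 and 20.5 CPM in members and 14.2 and 12.8 CPM against 69.9 and 84.3 CPM in the other cells, and rose in members with the block, 1.93 (SE 0.47, adjusted p = 0.032), at adjusted p = 0.18 without it. Cdk2ap1, a cell cycle inhibitor, stood at 42.1 and 30.7 CPM against 71.5 and 86.1 CPM in members and 28.6 and 26.6 CPM against 80.1 and 85.8 CPM in the other cells, and rose in members with the block, 1.11 (SE 0.26, adjusted p = 0.0247), at adjusted p = 0.122 without it. Jun stood at 30.9 and 36.3 CPM against 13.6 and 13.5 CPM in the other cells, Nmt1 at 26.9 and 25.2 CPM against 66.5 and 69.0 CPM and Gm6133 at 24.2 and 17.2 CPM against 80.1 and 122 CPM, each in the same direction as in members. S1pr5, a receptor that guides lymphocytes out of tissue, and Gbp6 were not called in members, at adjusted p = 0.447 and 0.447 with the block. Gm29243, Snhg9 and Hopxos had at most 10 UMIs in the members of any library and were not tested there.

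Bcl3 itself (chr7:19808462-19822770, minus strand) stood at 92.2 and 130.0 CPM in WT1 and WT2, and at 133 and 144 CPM in KO1 and KO2 in members, and at 30.9, 107, 24.3 and 84.6 CPM in the other cells. The values of both Bcl3-/- libraries lay above those of both WT libraries in members, and the difference was not called, with a log2 fold change of 0.32 (SE 0.20, adjusted p = 0.624) and adjusted p = 0.52 with the block. Which part of the gene is deleted was not stated in the sources at hand, and reads at the 3′ end check nothing if that end is still transcribed, so these values neither check the genotype nor measure Bcl-3 protein.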

How the data were processed

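The deposited files held UMI counts per gene and barcode for 4 libraries, which the authors had made with Cell Ranger 2.2.0 and bcl2fastq 2.17 on the genome build mm10, per the submitters' processing notes; the counts were used as deposited. Cells were kept at 500 or more genes and 10% or fewer mitochondrial UMIs, as in the study's filter, and no doublet caller was run. Free RNA was read from barcodes of 50 UMIs or fewer, and B cells were cells with at least 3 UMIs of Cd79a and Ms4a1 and under 6 marker UMIs. For Cd3 UMIs and sex-linked shares per cell, the other cells left out B cells and cells set apart by neutrophil genes. The median depth of the other cells given with the counts of members was not limited in this way. The members, gene lists and tests were chosen with earlier results of these data known, so that counts over a list are descriptions.

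UMIs were summed over the members of each library and tested with edgeR 4.0.16 in R 4.3.3 (TMM, filterByExpr, quasi-likelihood test, Benjamini-Hochberg adjusted p under 0.05), on 6172 genes besides the 12 genes of the rule, without a block. Standard errors were the log2 fold change divided by the root of the F statistic. The difference between members and other cells was tested as an interaction with library as a block. Same-numbered libraries came from 1 animal, and the differences between replicates 1 and 2 correlated between genotypes (r = 0.226 over 2587 genes with at least 50 CPM, across genes), so a fit with chimera as a replicate block was run beside it. Shares were compared after thinning each cell to 1000 UMIs, with exact Clopper-Pearson 95% intervals and an exact permutation test over libraries. Depth was 670884 to 759537 UMIs per library in members, which leaves low genes uncertain. The scripts were tested on simulated data.

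Named genes were the 6 markers, the 10 largest folds over the other cells with at least 200 CPM in every library, the 10 largest called changes in each direction with a mean of at least 30 CPM and 1 direction in both chimeras (with the block where under 3 were called), up to 4 of the most abundant genes and any called gene of each pathway list, Bcl3, the 5 interaction genes of lowest p in each direction, and the 10 genes of lowest p in the other cells. Some genes that the rule names are not reported here. Gene positions came from GENCODE vM21 and sequences from RefSeq GRCm38.p6. Alternatives were other filters, normalizations, DESeq2 1.42.0, subsets of members and leaving out each library.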

Additional observations from a re-analysis of the deposited data

Results flagged for a closer look

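The genotype effect differed between monocytes and macrophages and the other cells, by the interaction test of edgeR with library as a block, for 23 of the named genes reported here, and each value is the log2 effect in members minus that in the other cells. It was 1.67 for Iigp1 (adjusted p = 8.41e-10), 2.08 for Apol7c (1.82e-07), 1.08 for Gbp2 (5.83e-07), 1.75 for Jchain (6.74e-06) and 0.63 for Plac8 (8.79e-06). It was -1.95 for Chil3 (1.4e-18), -1.46 for Hp (8.84e-08), -1.13 for Wfdc17 (3.22e-07), -2.21 for Chil1 (1.49e-05) and -2.21 for Il1b (2.18e-05). That of Jchain rested on WT1, whose members alone were low, and was 0.30 (adjusted p = 0.943) without it. That of Il1b was -1.30 (adjusted p = 0.0987) without KO1, the only library low in members. It was 1.36 for Tppp3 (8.79e-06), 2.64 for Elane (9.04e-05), 2.43 for Mpo (0.00959), 0.87 for Serpina3g (0.000792), 0.40 for Cd74 (0.00549), 0.44 for H2-Aa (0.0149), 0.45 for H2-Ab1 (0.0132) and 0.45 for H2-Eb1 (0.0177). It was -0.76 for Gzmb (9.8e-05), -1.41 for Rrm2 (0.000807), -1.59 for Ccl3 (0.000982), -0.73 for Hist1h2ap (0.0132) and -0.70 for Ccl6 (0.0218). Of these last 13, Tppp3 alone was called without each single library, and Elane and Mpo turned sign without KO2. Among members without a Cd3 UMI after thinning, Tppp3, Elane, Mpo and Serpina3g of these 13 were called, and the other 9 were not. The values of those 9 were -0.18 for Rrm2, 0.22 for Cd74, 0.22 for H2-Aa, 0.29 for H2-Ab1 and 0.19 for H2-Eb1. Nearer to their values among all members were -0.69 for Gzmb, -1.32 for Ccl3, -0.76 for Ccl6 and -0.56 for Hist1h2ap. With 2 libraries per genotype, no group was large enough for a check of single samples. Without library as a block, no gene was called by the interaction test, while 546 of 11579 had an unadjusted p under 0.05, and DESeq2 called 7 genes more positive and 4 more negative in members.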

How the results depend on the processing

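The difference in the share of cells that are monocytes and macrophages, 0.0284 percentage points, turned to -0.154 with at least 800 genes, -0.0116 with at most 5% mitochondrial UMIs, -0.0140 with at least 10 marker UMIs, -0.394 with at least 4, -0.0995 after thinning and -0.0365 for members without Cd3 UMIs, and lay between -0.0858 and 0.143 without single libraries. The Cd3 difference of 6.42 points lay between -1.73 and 14.6 without single libraries. The C1q share of 32.9% was 51.8% without thinning, 42.4% at 1 UMI and 18.9% at 4 UMIs. Genes called between Bcl3-/- and WT, 14 higher and 3 lower, became 74 and 47 with the replicate block, 52 and 25 with at least 10 marker UMIs, 83 and 52 without a filter on low counts, 22 and 10 with at most 1 Mzb1 UMI, 16 and 13 with at most 1 Elane, Mpo and Prtn3 UMI, 13 and 5 in members with 2 or more C1q UMIs, 5 and 4 in those with under 2, 0 and 1 in those with few C1q and non-classical UMIs, 1 and 2 in those without Cd3 UMIs after thinning, 0 and 1 without any Cd3 UMI (306 genes tested), 0 and 1 with equal cells and UMIs (1426 genes tested), and 16 and 5 with library totals. Without single libraries they were 43 to 71 higher and 40 to 57 lower. All 17 genes were called with the block. They were also called without each single library, where the spread comes from the other genotype alone, the lone library is assumed to vary alike and calls in all rose, so that this is no sign of stability. DESeq2 kept 13, and members with at least 10 marker UMIs kept 17. Interaction calls, 25 more positive and 23 more negative, became 7 and 4 with DESeq2, 0 and 0 without the library as a replicate block, 0 and 0 without Cd3 UMIs and 13 and 8 without them after thinning, and 14 to 41 and 14 to 25 without single libraries; leaving out a whole chimera was not run, since it leaves no residual degrees of freedom. Signs turned for Plac8 (-0.14, and -0.19 for its interaction), Apoe (0.0666) and Fth1 (0.60) in members without Cd3 UMIs, for Mpo with at least 10 marker UMIs (-0.18), and for Elane and Mpo without KO2 (-6.67 and -6.87, against highest values of 3.66 and 5.20 without WT2). Interaction values turned for Rrm2 in members without Cd3 UMIs (0.35) and for Elane and Mpo without KO2 (-9.29 and -10.2, against highest values of 3.94 and 5.25 without WT2). The causes were not tested. The counts of calls depend on the estimate of spread from 2 libraries per genotype, and genes with few UMIs could not be judged at this depth.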

Other observations

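Transcripts linked to the sex chromosomes were read in members and other cells as shares of cells with UMIs of Xist only or of Y-linked genes only, first before thinning. Among the other cells, Xist alone was found in 2.74% and 3.65% of cells in WT1 and KO1 and in 37.8% and 44.1% in WT2 and KO2. Y-linked genes alone were found in 32.0% and 36.6% of the other cells of WT1 and KO1, and in 7.89% and 13.1% of those of WT2 and KO2. In members the chimeras lay closer together, with the same order for Y-linked genes: Xist alone was found in 31.0%, 29.0%, 24.7% and 39.0% of members of WT1, WT2, KO1 and KO2, and Y-linked genes alone in 31.0%, 21.0%, 33.3% and 20% in the same order. B cells, which a Rag1-/- host does not make, had Xist alone in 28.8%, 41.0%, 37.8% and 41.4% and Y-linked genes alone in 24%, 13.2%, 14.9% and 17.1% in that order. Whether members came from the host was not tested, and these shares do not tell host from donor cells.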
